A study of Mus musculus with 14 samples.

Results

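The nuclear genes for the subunits of oxidative phosphorylation were followed in single cells of the mouse spinal cord. Members were the genes whose symbols start with Ndufa, Ndufb, Ndufc, Ndufs or Ndufv and a number, with Uqcr, with Cox4 to Cox8 or with Atp5, together with Sdha, Sdhb, Sdhc, Sdhd and Cycs, and symbols containing -ps were left out. The rule found 90 of the 55335 genes in the files: 40 of complex I, 4 of complex II, 8 of complex III, Cycs, 19 of complex IV and 18 of complex V. Symbols alone set the list, so Cyc1, Ndufab1 and Ndufb1-ps fell outside it, and 2 of the 90 entries are called Atp5o. The 37 genes of the mitochondrial genome, 13 of them protein coding, were set beside the members.

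Oxidative phosphorylation takes electrons from NADH at complex I and from succinate at complex II, passes them through complex III and the mobile carrier cytochrome c to oxygen at complex IV, and uses the proton gradient built on the way to make ATP at complex V. Complexes I, III, IV and V are built from proteins of both the nuclear and the mitochondrial genome, whereas all complex II subunits are nuclear. In microglia, the resident macrophages of the central nervous system, respiration and glycolysis both supply ATP, and the balance between them is known to shift with activation.

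Cells of whole spinal cords from mice of postnatal days P115-120 were captured on the 10x Genomics 3' platform, and the study asked what the myeloid receptor Clec7a does in microglia of a mouse model of amyotrophic lateral sclerosis. The 4 groups were nTg, with neither alteration (3 libraries), Clec7a-KO, of strain B6.129S6-Clec7atm1Gdb/J (4), SOD1G93A, of strain B6SJL-Tg(SOD1*G93A)1Gur/J with a mutant human SOD1 transgene (3), and SOD1G93A/Clec7a-KO, with both (4). The labels give no strain name for nTg and for the double group, so the genetic background of the groups compared may differ. They do not say whether each library came from 1 animal, and the p-values below measure the spread between libraries. Libraries are named by group and replicate.

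The files held 108892 barcodes, 3096 to 12367 per library with a median of 5190.5 to 14886 unique molecular identifiers (UMIs, counted transcripts) per barcode, and 90018 cells were kept. Any pair of libraries shared at most 0.468% of cell barcodes. Clusters were named after fixed markers, so each class name below means cells like that class: microglia (40865 cells, 923 to 5375 per library), endothelial cells (11683), ependymal cells (7687), astrocytes (5699), oligodendrocyte precursors (3918), mural cells (1735), neurons (1233) and, the fewest of those described, T or NK cells. A class of 81 oligodendrocytes was too small to describe. All of the markers of each class were detected in it. Clec7a in microglia was 37.1 to 101.6 CPM (UMIs scaled to 1000000 of the class) in nTg, 779.7 to 862 in SOD1G93A, and 0.921 to 3.05 in the groups labelled knockout.

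Some cells that scored as microglia stayed outside the class. A further 3 clusters with 11266 cells scored highest on microglial markers and stayed unnamed, because genes of another class stood more often among their leading genes. The genes Gpnmb, Lgals3 and Spp1, known from phagocytic microglia and macrophages, led 2 of them, and haemoglobin genes stood beside P2ry12 and Tmem119 in the third. In the 2 with Gpnmb, the only listed marker among the leading genes was Ms4a7, from the list of border-associated macrophages. Of all cells of both kinds, the 3 clusters were 18.0% in nTg, 21.0% in Clec7a-KO, 18.2% in SOD1G93A and 25.5% in the double group. The members took 1.35%, 1.23%, 1.17% and 1.44% of their UMIs in these 4 groups in turn. Their borders were not firm: clustering again with another random seed, or with 1 cell left out, moved whole clusters into or out of the class (45993 and 42776 microglia), and member counts under these settings stand beside the results below.

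Some libraries stood apart before any group was compared. The labels number the libraries 1 to 16 across groups, and those numbered 13, 15 and 16 (SOD1G93A/Clec7a-KO_3, SOD1G93A/Clec7a-KO_4 and Clec7a-KO_4) had the lowest sums of the mitochondrial ribosomal RNAs mt-Rnr1 and mt-Rnr2 in 7 of 8 classes. In microglia these sums were 509 to 861 CPM without further scaling, against 1461 to 9831 in the other 11 libraries. SOD1G93A_1 had the lowest nuclear oxidative phosphorylation share in 7 of 8 classes and SOD1G93A/Clec7a-KO_3 the highest in 6. Library numbers 1, 5 and 6 in SOD1G93A lay below 8, 9 and 12 in nTg, so that order and transgene cannot be told apart in this comparison, whereas the numbers of the other groups were interleaved. Xist exceeded Ddx3y, a sign of female cells, in 2 of 3 nTg, 1 of 4 Clec7a-KO, 0 of 3 SOD1G93A and 1 of 4 double libraries. The part of order and sex in the results was tested only as far as the covariate fits and the fits to libraries 1 to 12 go.

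The stretch before the start of a gene is where transcription factors of this pathway are known to bind, and RefSeq's table (GRCm38.p6) held 74 windows of 300 bases for 69 of the 89 different member symbols. On either strand, the letters GCGCA, then any base, then GCGC, the motif of nuclear respiratory factor 1, stood in 24.3% of these windows and in 4.6% of all 32851 windows of the table. The ETS letters CCGGAAG stood in 23.0% of member windows and 8.86% of all, and AGGAAGT, the motif of the myeloid factor PU.1, in 16.2% and 9.35%. The ETS and PU.1 letters share GGAAG but differ before it, so they cannot match at the same place. The windows below belong to members whose values follow. The stretches shown hold 1 match to each motif, a further ETS match in Uqcr11 and, for Cox5a, none, and Ndufa8 and Sdhd also hold the nuclear respiratory factor 1 letters elsewhere in their windows. Each is a stretch of the window before the gene's first exon, whole for Cox5a and cut to a shorter piece for the others, written 5' to 3' on the gene's strand with the match in capitals: Ndufa8 (chr2:36049407-36049457, minus strand, PU.1 letters on the opposite strand), Sdha (chr13:74350281-74350308, minus, nuclear respiratory factor 1), Sdhd (chr9:50603850-50603909, minus, ETS on the opposite strand), Uqcr11 (chr10:80406831-80407071, minus, ETS) and Cox5a (chr9:57520982-57521231, plus, none). A match is a description of letters and not a bound site.
Ndufa8: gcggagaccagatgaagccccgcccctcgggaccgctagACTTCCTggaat
Sdha: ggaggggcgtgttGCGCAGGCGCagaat
Sdhd: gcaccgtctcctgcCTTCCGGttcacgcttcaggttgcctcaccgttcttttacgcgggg
Uqcr11: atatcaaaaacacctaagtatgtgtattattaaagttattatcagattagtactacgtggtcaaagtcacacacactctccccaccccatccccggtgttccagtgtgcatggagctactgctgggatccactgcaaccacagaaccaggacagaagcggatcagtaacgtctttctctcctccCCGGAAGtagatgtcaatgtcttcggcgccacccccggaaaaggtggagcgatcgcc
Cox5a: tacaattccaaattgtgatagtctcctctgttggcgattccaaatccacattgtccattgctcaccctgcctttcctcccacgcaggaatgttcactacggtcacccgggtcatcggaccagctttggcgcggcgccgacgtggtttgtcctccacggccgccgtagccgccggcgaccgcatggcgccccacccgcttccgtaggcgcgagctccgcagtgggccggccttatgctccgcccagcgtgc

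Across cell classes, microglia devoted the smallest share of their transcripts to the pathway. The members took 1.13% ± 0.218 (SD, n = 14 libraries) of microglial UMIs, against 1.61% ± 0.198 in endothelial cells, 1.85% ± 0.180 in ependymal cells, 2.21% ± 0.239 in oligodendrocyte precursors, 2.52% ± 0.224 in mural cells and 2.68% ± 0.401 in astrocytes (n = 14 each). Neurons (2.06% ± 0.352, n = 13) and T or NK cells (1.54% ± 0.199, n = 11) lay between. The mt- share was likewise lowest in microglia (1.33% ± 0.385) and highest in astrocytes (8.02% ± 1.87), with ependymal cells next (4.97% ± 0.938), above mural cells (3.30% ± 1.24) and oligodendrocyte precursors (2.43% ± 0.539). T or NK cells came close to microglia in mt- share, with single libraries from 0.843% to 2.69%, against 0.750% to 2.18% in microglia. The levels of mt-Co2, mt-Co3 and mt-Atp6 are uncertain, as said below, which also limits these mt- shares. Class levels are descriptions with no test, since the cells were clustered on the same counts.

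Gene by gene, microglia had the lowest mean level for 64 of the 82 members that reached 10 CPM in some class. Astrocytes had the highest for 44, mural cells for 15 and oligodendrocyte precursors for 11. Ndufs1, an iron-sulfur subunit of complex I, averaged 26.9 CPM in microglia and 97.0 in astrocytes. Cox5a, a core-assembly subunit of complex IV, averaged 146 and 559 CPM in these classes. Cox7a2l, which takes part in joining complexes III and IV, ran the other way, with 553 CPM in T or NK cells, 438 in microglia and the lowest mean, 176, in astrocytes. Neighbouring classes often overlapped: the ranges of single libraries are drawn for the isoform pairs.

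Some alternative forms of subunits were concentrated in 1 class. Cox4i2, the alternative subunit 4 of complex IV known from lung and vascular cells, averaged 998 CPM in mural cells, 81.1 times the next class, endothelial cells with 12.3 CPM. It took 50.4% ± 7.36 (n = 14) of the Cox4i1 and Cox4i2 UMIs there. The group means of this share lay between 48.1% and 53.9%. Ndufa4l2, a relative of the complex IV subunit Ndufa4 that is known as a target of hypoxia signalling, averaged 2079 CPM in mural cells and 29.6 in endothelial cells, a ratio of 70.1. Its partner Ndufa4 was lowest in mural cells, at 125 CPM, and highest in oligodendrocyte precursors, at 919, so Ndufa4l2 made up 94.1% ± 2.26 of the mural UMIs of the pair.

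**Figure D1:**
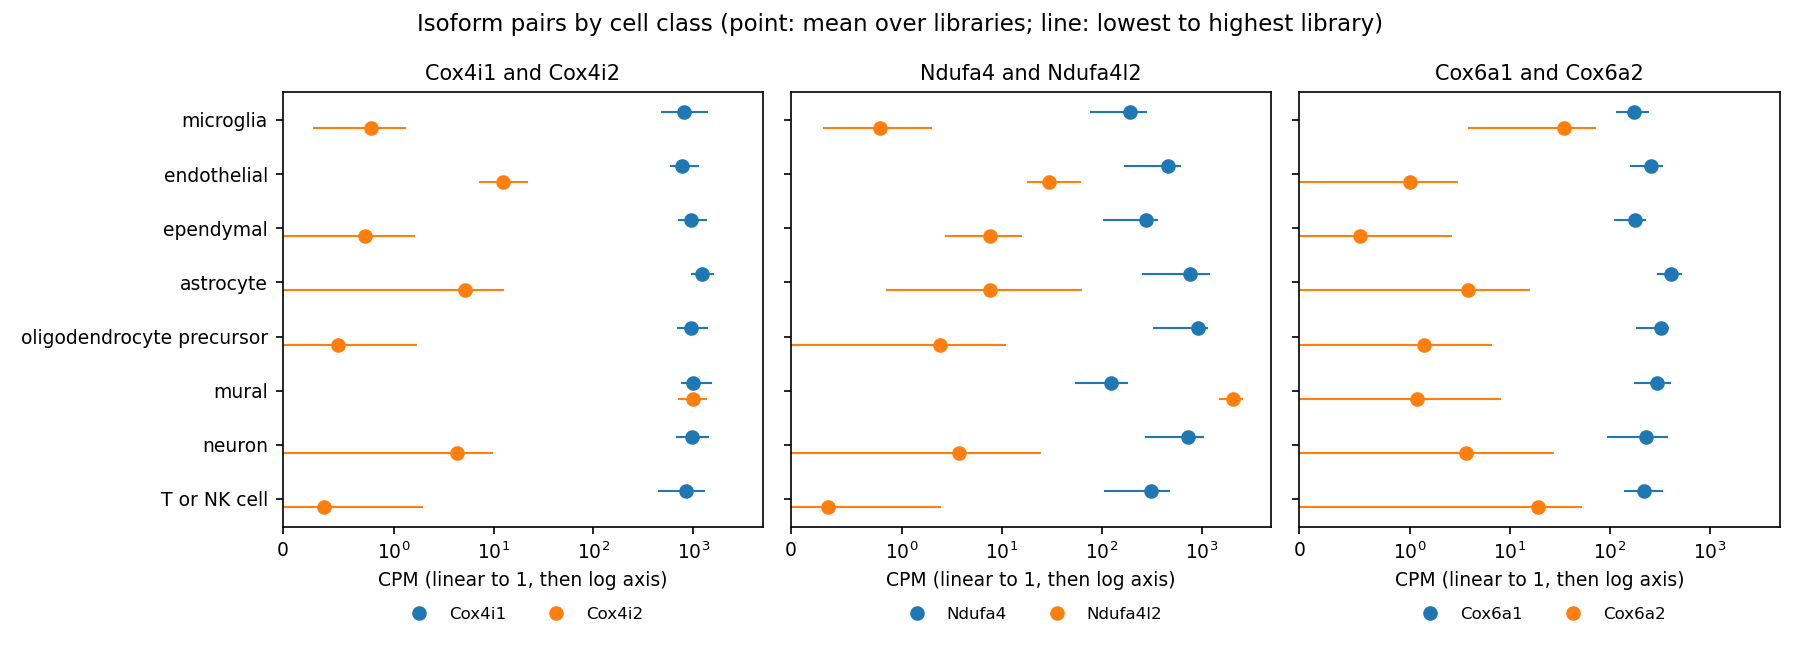
Levels of 3 isoform pairs in 8 cell classes; the horizontal axis is CPM, linear up to 1 and logarithmic above, each point is the mean over libraries and each line runs from the lowest to the highest library. Cox4i2 and Ndufa4l2 stand at 998 and 2079 CPM in mural cells, with 12.3 and 29.6 in the next class, and Cox6a2 has its highest mean, 34.6 CPM, in microglia.

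Several other members had a leading class in the mean over all libraries. Cox7a1, the heart and muscle form of subunit 7a, averaged 54.5 CPM in astrocytes and 19.8 in mural cells. Cox6b2, known as the testis form of subunit 6b, averaged 56.5 CPM in astrocytes and 50.4 in ependymal cells, where it made up 11.9% ± 3.05 of the Cox6b1 and Cox6b2 UMIs. This order rests on the transgenic libraries: without the transgene Cox6b2 measured 18.3 to 32.7 CPM in astrocytes and 33.5 to 86.6 in ependymal cells, each scaled within its class. Ndufb5, an accessory subunit of complex I, was highest in ependymal cells (417 CPM, next 276 in astrocytes). Uqcr10 (543 CPM, next 303) and Uqcrfs1 (259, next 170.5) of complex III, Atp5k of ATP synthase (390.4, next 249) and Ndufa12 of complex I (143, next 89.8) were highest in astrocytes. Cox6a2, the heart and muscle form of subunit 6a, averaged 34.6 CPM in microglia and 19.0 in T or NK cells. In the other 6 classes it averaged between 0.545 CPM in ependymal cells and 3.79 in astrocytes. These means pool groups that differ, and the microglial values by group follow below. Of the Cox6a1 and Cox6a2 UMIs of T or NK cells, Cox6a2 made up a mean of 2.15% ± 3.72 in Clec7a-KO, 9.72% ± 10.95 in SOD1G93A and 13.3% ± 5.80 in the double group. It made up 0% in nTg_1, the only nTg library with enough of these cells. These shares rest on 146 Cox6a2 UMIs, and the part of free microglial RNA in them was not tested.

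With the transgene, 39 of 83 tested members rose in microglia of SOD1G93A (18.7% of all genes rose) and 67 of 83 in those of the double group (24.5% of all genes). They came from all 5 complexes, and none fell. In the nTg libraries the summed member share of microglial UMIs was 0.975%, 0.940% and 0.958%, and in SOD1G93A it was 0.940%, 1.09% and 1.32%. The groups overlapped at SOD1G93A_1. In Clec7a-KO the shares were 1.05%, 0.934%, 0.922% and 0.982%, and in SOD1G93A/Clec7a-KO 1.33%, 1.31%, 1.53% and 1.46%. Every double library lay above every Clec7a-KO library, whereas the double group and SOD1G93A overlapped, at 1.31% in SOD1G93A/Clec7a-KO_2 and 1.32% in SOD1G93A_3. The mt- shares of all 4 groups overlapped, with means of 1.54% ± 0.431 in nTg, 1.40% ± 0.541 in Clec7a-KO, 1.36% ± 0.220 in SOD1G93A and 1.09% ± 0.246 in the double group.

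**Figure D2:**
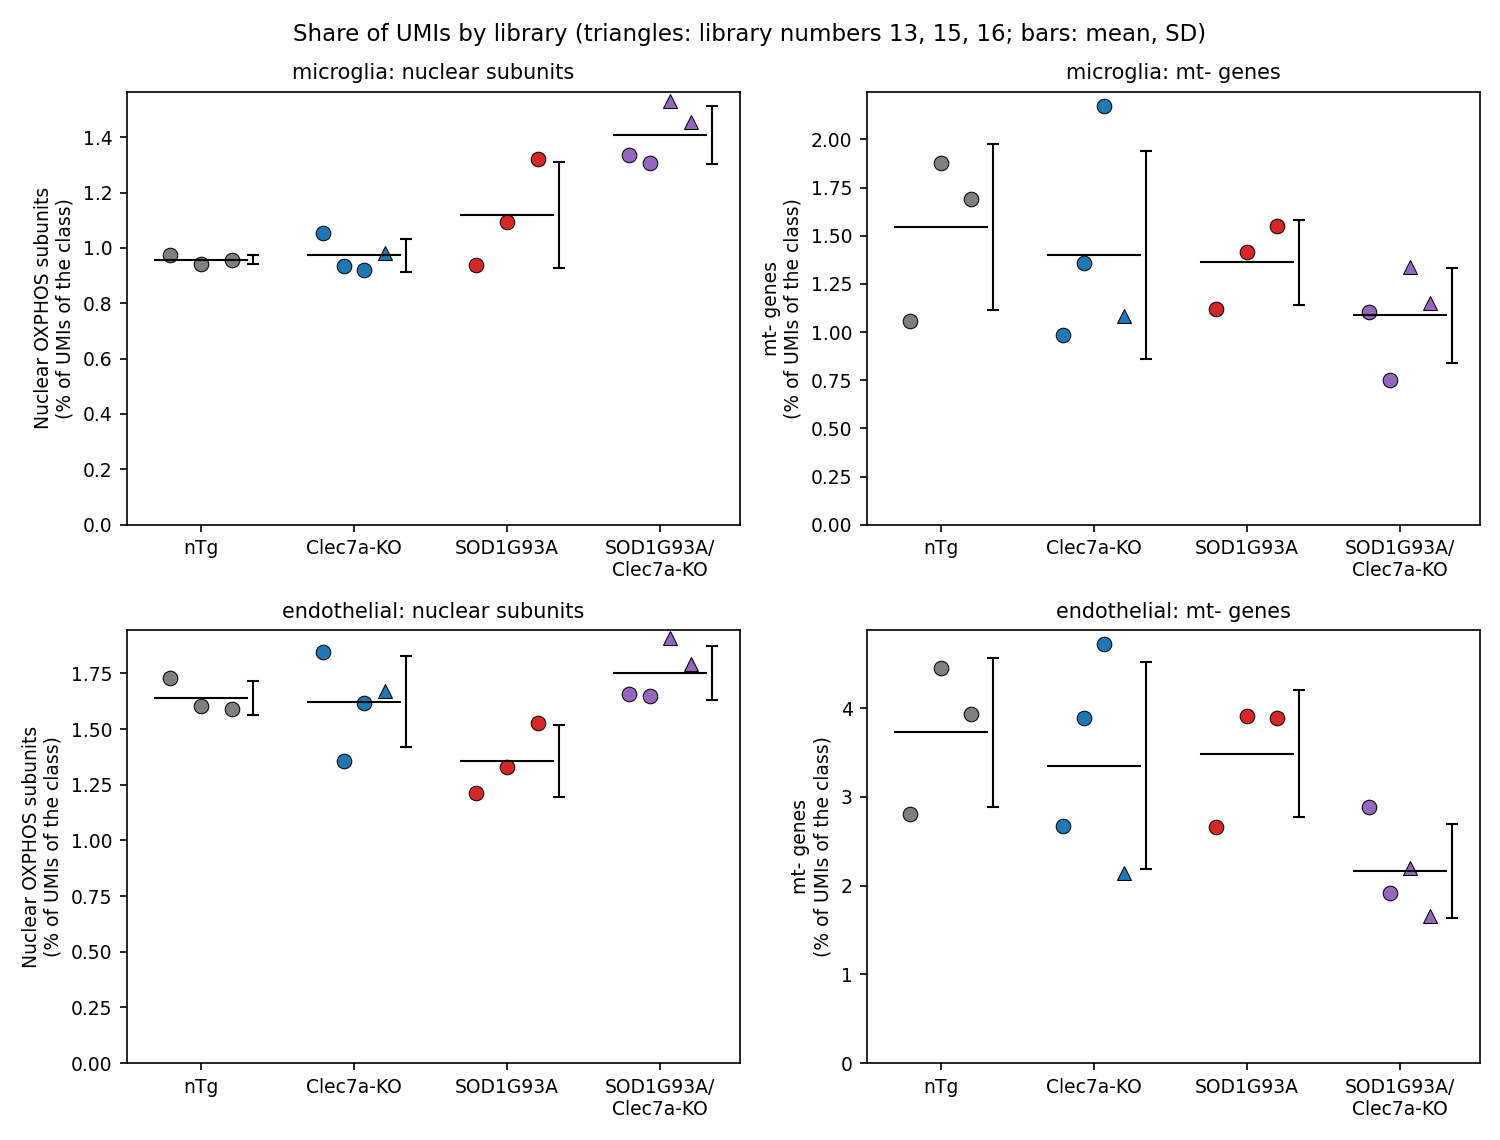
Percentage of UMIs from nuclear subunit genes (left) and mt- genes (right) in microglia (top) and endothelial cells (bottom), 1 point per library; lines and bars are mean and SD, and triangles are the libraries numbered 13, 15 and 16. In microglia the 4 SOD1G93A/Clec7a-KO libraries lie at 1.31% to 1.53%, above all libraries without the transgene, while in endothelial cells SOD1G93A lies lowest, with a highest value of 1.53% and only Clec7a-KO_2 within its range.

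The test was run gene by gene on UMIs summed per library over microglia, with edgeR's quasi-likelihood model across all 16009 genes tested and Benjamini-Hochberg adjustment. Of the 90 members, 83 passed the filter on low counts. The CPM of members and mt- genes by library given below carry the TMM scaling of this fit (a correction for library composition), so they differ somewhat from UMIs per 1000000. In SOD1G93A against nTg, 39 of them rose and 0 fell at an adjusted p under 0.05, and 77 of 83 log2 fold changes lay above 0 (median 0.59). Of all genes tested 31.1% were called in this contrast, 18.7% as higher, and their median was 0.01. In SOD1G93A/Clec7a-KO against Clec7a-KO, a contrast that shares no library with the first, 67 rose and 0 fell, with a median of 0.97 and 82 of 83 above 0. Here 44.3% of all genes were called, 24.5% as higher, with a median of 0.00. All 39 genes called in the first contrast were among the 67, which is 100% of the first list and 58.2% of the second. With 67 of 83 members called in the second contrast, a large overlap follows from the counts alone. The overlap over all genes is not given.

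Every transgenic library lay above every library of its control group for 38 members in the first contrast (28.6% of all genes) and 58 in the second (20.2%). Restricted to libraries 1 to 12, the test called 43 members higher in SOD1G93A (23.9% of all genes) and 55 higher in the double group (23.3%), with medians of 0.60 and 0.84, and none lower. The borders of the microglial class moved these counts little: another clustering seed gave 39 and 64, leaving out 1 cell 38 and 64, and counting every cluster that scored highest as microglia 38 and 68. With Xist as a covariate 24 members rose in SOD1G93A, with the library number 60, and with cells thinned to 2000 UMIs 27. Without SOD1G93A_2, nTg_1 or nTg_3, 26 rose, and without SOD1G93A_1, 43, of which 30 were among the 39. Xist, the library number and thinning gave 63, 75 and 60 members in the double group. For settings besides libraries 1 to 12 the share of all genes called is not given. These counts therefore do not separate members from a shift over all genes.

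**Figure D3:**
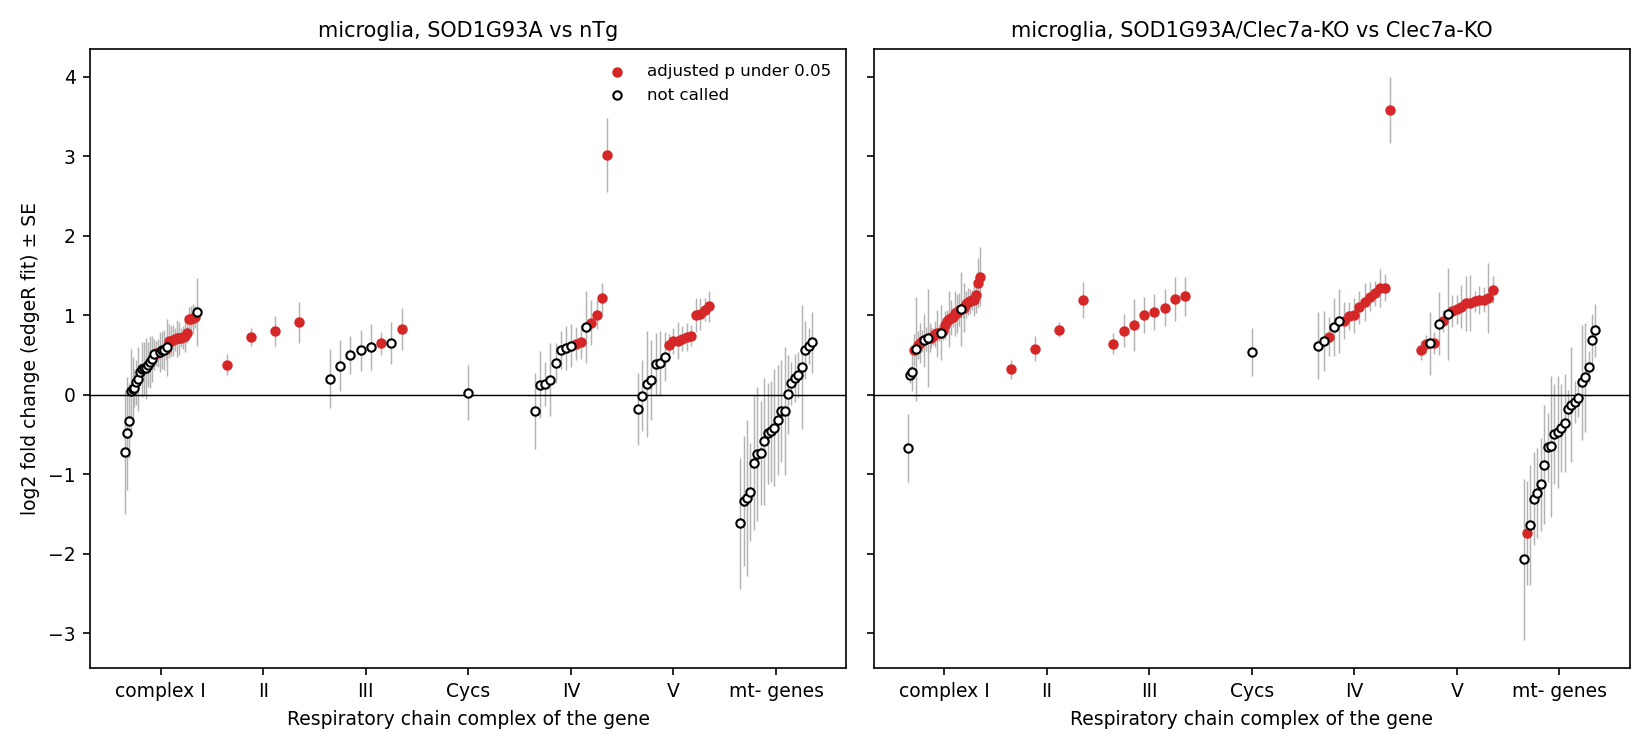
Log2 fold change of each tested member and mt- gene in microglia, by complex and ordered by size, for SOD1G93A against nTg (left) and SOD1G93A/Clec7a-KO against Clec7a-KO (right); bars are the SE and red points passed an adjusted p under 0.05. All red points of the nuclear complexes lie above 0, Cox6a2 stands apart at 3.02 and 3.58, and most mt- genes lie below 0.

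In complex I, which oxidises NADH, 17 of 38 tested members rose in SOD1G93A and 30 of 38 in the double group. Complexes were assigned by symbol, so these counts include Ndufa4, which rose in the double group only, and Ndufa4l2, which passed in neither. Ndufb5 measured 83.6, 88.5 and 80.4 CPM in nTg, 157, 174 and 167 in SOD1G93A, 97.7, 88.4, 74.3 and 87.6 in Clec7a-KO, and 192, 207, 180.4 and 160.0 in the double group. All transgenic libraries lay above all others. The log2 fold changes were 0.98 (SE 0.14, edgeR adjusted p = 0.000125) and 1.09 (SE 0.12, edgeR adjusted p = 7.98e-06). Its neighbour Mrpl47, a mitochondrial ribosomal protein gene, shares 616 exon bases with it on the other strand. Ndufa8 rose by 0.95 and 0.93 on the log2 scale, and Ndufb8, which sits in the membrane arm, by 0.96 and 1.17.

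The catalytic subunits had lower fold changes. Ndufs1, the largest iron-sulfur subunit, measured 20.0, 25.6 and 24.7 CPM in nTg and 29.1, 27.3 and 28.8 in SOD1G93A. The groups did not overlap, but its log2 fold change of 0.28 (SE 0.12) did not pass (edgeR adjusted p = 0.092). Nor did it pass in the double group (0.25, edgeR adjusted p = 0.067), except without nTg_1 (0.25, edgeR adjusted p = 0.0467), with a term for library number, and with every cluster that scored highest as microglia (0.28, edgeR adjusted p = 0.0408). Ndufv1, which binds NADH, rose by 0.52 and 0.70. Its first call was lost in 12 settings, among them without SOD1G93A_1 (0.27, edgeR adjusted p = 0.257), SOD1G93A_2 or any 1 nTg or double library. Ndufa1, Ndufa2 and Ndufv3 passed in the second contrast, with 1.49, 1.25 and 1.41, and missed the threshold in the first, with 1.04, 0.56 and 0.59. Ndufa1 lost its call in libraries 1 to 12 (0.92, edgeR adjusted p = 0.103). Ndufv3 measured 237 and 234 CPM in SOD1G93A/Clec7a-KO_3 and SOD1G93A/Clec7a-KO_4, and 104 and 114 in the other double libraries. Clec7a-KO_4, at 97.1 CPM, was likewise above the other Clec7a-KO libraries (47.8 to 60.7).

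Complex II, succinate dehydrogenase, which also serves the citric acid cycle, was the 1 complex of which every subunit rose in both contrasts (4 of 4). Sdhb, its iron-sulfur subunit, measured 59.0, 72.7 and 62.8 CPM in nTg and 142, 118 and 105 in SOD1G93A, without overlap (0.91 on the log2 scale, SE 0.26, edgeR adjusted p = 0.0154). In Clec7a-KO it measured 69.1, 67.2, 57.9 and 116 and in the double group 122, 158, 216 and 212, again without overlap (1.19, SE 0.22, edgeR adjusted p = 0.000703). The first of these calls was lost in 4 settings, among them without SOD1G93A_1 (0.73, edgeR adjusted p = 0.0688), nTg_1 (0.85, edgeR adjusted p = 0.0576) or nTg_3 (0.89, edgeR adjusted p = 0.0505). SOD1G93A/Clec7a-KO_3, SOD1G93A/Clec7a-KO_4 and Clec7a-KO_4 held the highest Sdhb values of their groups. In endothelial cells these libraries were the highest of all, at 137, 143 and 126 CPM, against 76.6 to 123 in the others.

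Sdhc, a membrane anchor, rose by 0.72 and 0.82, and the other anchor Sdhd by 0.80 and 0.58. Sdhd overlapped in the second contrast, where SOD1G93A/Clec7a-KO_2 at 43.2 CPM lay below Clec7a-KO_2 at 48.5. It lost that call in 3 settings, among them libraries 1 to 12 (0.38, edgeR adjusted p = 0.133) and without SOD1G93A/Clec7a-KO_3 (0.45, edgeR adjusted p = 0.0529). Sdha, the flavoprotein that binds succinate, rose least, by 0.38 (SE 0.13, edgeR adjusted p = 0.044) and 0.32 (SE 0.12, edgeR adjusted p = 0.0378). Its call in SOD1G93A was lost in 21 settings. Among them was leaving out any 1 library but Clec7a-KO_4, with 0.21 (edgeR adjusted p = 0.289) without SOD1G93A_1. The call in the double group was lost in 14 settings. Among them was leaving out any 1 library but Clec7a-KO_1 and the nTg libraries, with 0.20 (edgeR adjusted p = 0.202) without SOD1G93A/Clec7a-KO_2.

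Complex III, the cytochrome c reductase, gave 2 called members of 8 in SOD1G93A and 8 of 8 in the double group. Uqcrfs1, the Rieske iron-sulfur protein, measured 60.9, 61.9 and 52.9 CPM in nTg against 113, 103 and 96.2 in SOD1G93A (0.83, SE 0.26, edgeR adjusted p = 0.0262). The call was lost in 8 settings, among them without any 1 of these 6 libraries. Of those omissions the lowest value was 0.70 (edgeR adjusted p = 0.088) without SOD1G93A_1. In the double group it rose by 1.00 (SE 0.23), although SOD1G93A/Clec7a-KO_1 at 105 CPM lay below Clec7a-KO_4 at 107. The core protein Uqcrc2 rose by 0.64 and 0.64, and lost the first call with thinned cells (0.46, edgeR adjusted p = 0.0731). The other core protein, Uqcrc1, passed in the second contrast alone (0.50 and 0.80), as did Uqcrq (0.65 and 1.09) and the small subunits Uqcr10 (0.60 and 1.24) and Uqcr11 (0.36 and 1.20). In libraries 1 to 12 Uqcrc1 passed in the first contrast too (0.51, edgeR adjusted p = 0.0426). Cycs, cytochrome c itself, passed in neither: it measured 63.9, 82.3 and 74.5 CPM in nTg and 48.7, 84.8 and 91.1 in SOD1G93A (0.03, SE 0.35, edgeR adjusted p = 0.965). In the second contrast it read 0.53 (SE 0.30, edgeR adjusted p = 0.163), with 159 and 180.1 CPM in the double libraries 3 and 4 and 75.3 and 70.6 in the other 2.

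In complex IV, cytochrome c oxidase, 6 of 15 members rose in SOD1G93A and 11 of 15 in the double group, and Cox6a2 had the highest fold change of all members in both. It measured 6.47, 4.72 and 11.6 CPM in nTg and 36.4, 69.1 and 75.8 in SOD1G93A. In Clec7a-KO it measured 5.51, 4.73, 3.24 and 14.2 and in the double group 66.0, 76.1, 91.0 and 90.2. The highest library without the transgene stood at 14.2 and the lowest with it at 36.4. The log2 fold changes were 3.02 (SE 0.46, edgeR adjusted p = 0.00027) and 3.58 (SE 0.41, edgeR adjusted p = 1.28e-05). Its share of the Cox6a1 and Cox6a2 UMIs of microglia averaged 5.85% in nTg, 5.04% in Clec7a-KO, 23.7% in SOD1G93A and 23.8% in the double group. Cox6a1, the common form, rose too, by 0.64 and 0.99.

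The position of Cox6a2 bears on how its reads may be counted. On GRCm38 it lies on the minus strand at chr7:128205435-128206387, inside the plus-strand gene Itgad (chr7:128154376-128223816), with 70 exon bases in common. Itgax, the integrin gene of activated microglia, ends before it at position 128150657. Whether counting used strand is not given in the sources used here. In UMIs per 1000000, without TMM scaling, Itgad itself was at most 0.198 in any microglial library. On the same scale Itgax measured 5.66 to 18.4 in the libraries without the transgene and 141 to 227 in those with it, a log2 fold change of 4.29 in SOD1G93A and 4.27 in the double group. In the annotation, 27 of the 90 members share exon bases with a gene on the other strand, and 11 have a near-identical 3' end elsewhere, among them Atp5l with 8 copies.

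Cox4i1, the common form of subunit 4, measured 509.6, 476 and 447 CPM in nTg and 1104, 1148 and 1078 in SOD1G93A (1.22, SE 0.19, edgeR adjusted p = 0.000291). In Clec7a-KO it measured 598, 516, 409.9 and 488 and in the double group 1275, 1627, 1202 and 1011 (1.35, SE 0.16, edgeR adjusted p = 2.14e-05). The groups did not overlap in either contrast, and the levels of the double libraries 3 and 4 lay below those of 1 and 2. Cox5a, with 80.9 to 99.8 CPM in nTg and 149 to 198 in SOD1G93A, rose by 1.01 and 1.27. Cox7c, a small subunit with 2 near-identical copies, was uneven in SOD1G93A: it read 98.2, 218 and 389.9 CPM there and 219, 193 and 236 in nTg (0.13, edgeR adjusted p = 0.845). In the double group it read 284, 208, 544 and 604 CPM, and in Clec7a-KO 221, 205, 208 and 277. The pattern was not particular to Cox7c. SOD1G93A_1 also lay below every nTg library in Cox6c (60.3, 180 and 287 CPM in SOD1G93A, 142 to 178 in nTg), Atp5e (144, 294 and 482, against 203 to 274) and further members.

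In complex V, ATP synthase, 10 of 17 members rose in SOD1G93A and 14 of 17 in the double group. The catalytic beta subunit Atp5b measured 227, 253 and 242 CPM in nTg and 435, 385 and 354 in SOD1G93A (0.70, SE 0.16, edgeR adjusted p = 0.0037). It rose by 0.65 (SE 0.14) in the double group, and the alpha subunit Atp5a1 by 0.62 and 0.55. Atp5d, of the rotating central stalk, measured 142, 137 and 122 CPM in nTg and 351, 263 and 251 in SOD1G93A, and rose by 1.11 and 1.32. Atp5o of the peripheral stalk rose by 1.07 and 1.17. Of the 3 genes for the proton-carrying ring, Atp5g1 (0.73 and 1.19) and Atp5g3 (1.01 and 1.18) rose in both contrasts, and Atp5g2 (0.13 and 1.02) passed in neither.

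Atp5mpl, a small membrane subunit, had a call that rested on single libraries. It measured 94.8, 90.3 and 126 CPM in nTg, 52.4, 112 and 189 in SOD1G93A, 96.8, 78.7, 114 and 181 in Clec7a-KO, and 138, 122, 418 and 411 in the double group. The 2 high double libraries and the high Clec7a-KO library are those numbered 13, 15 and 16. Its log2 fold change in the second contrast was 1.21 (SE 0.44, edgeR adjusted p = 0.0368), and 0.44 (edgeR adjusted p = 0.37) in libraries 1 to 12. Without SOD1G93A/Clec7a-KO_3 it read 0.86 (edgeR adjusted p = 0.137), and the call was also lost without SOD1G93A/Clec7a-KO_4, SOD1G93A_2, Clec7a-KO_1, Clec7a-KO_2 or Clec7a-KO_3.

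**Figure D4:**
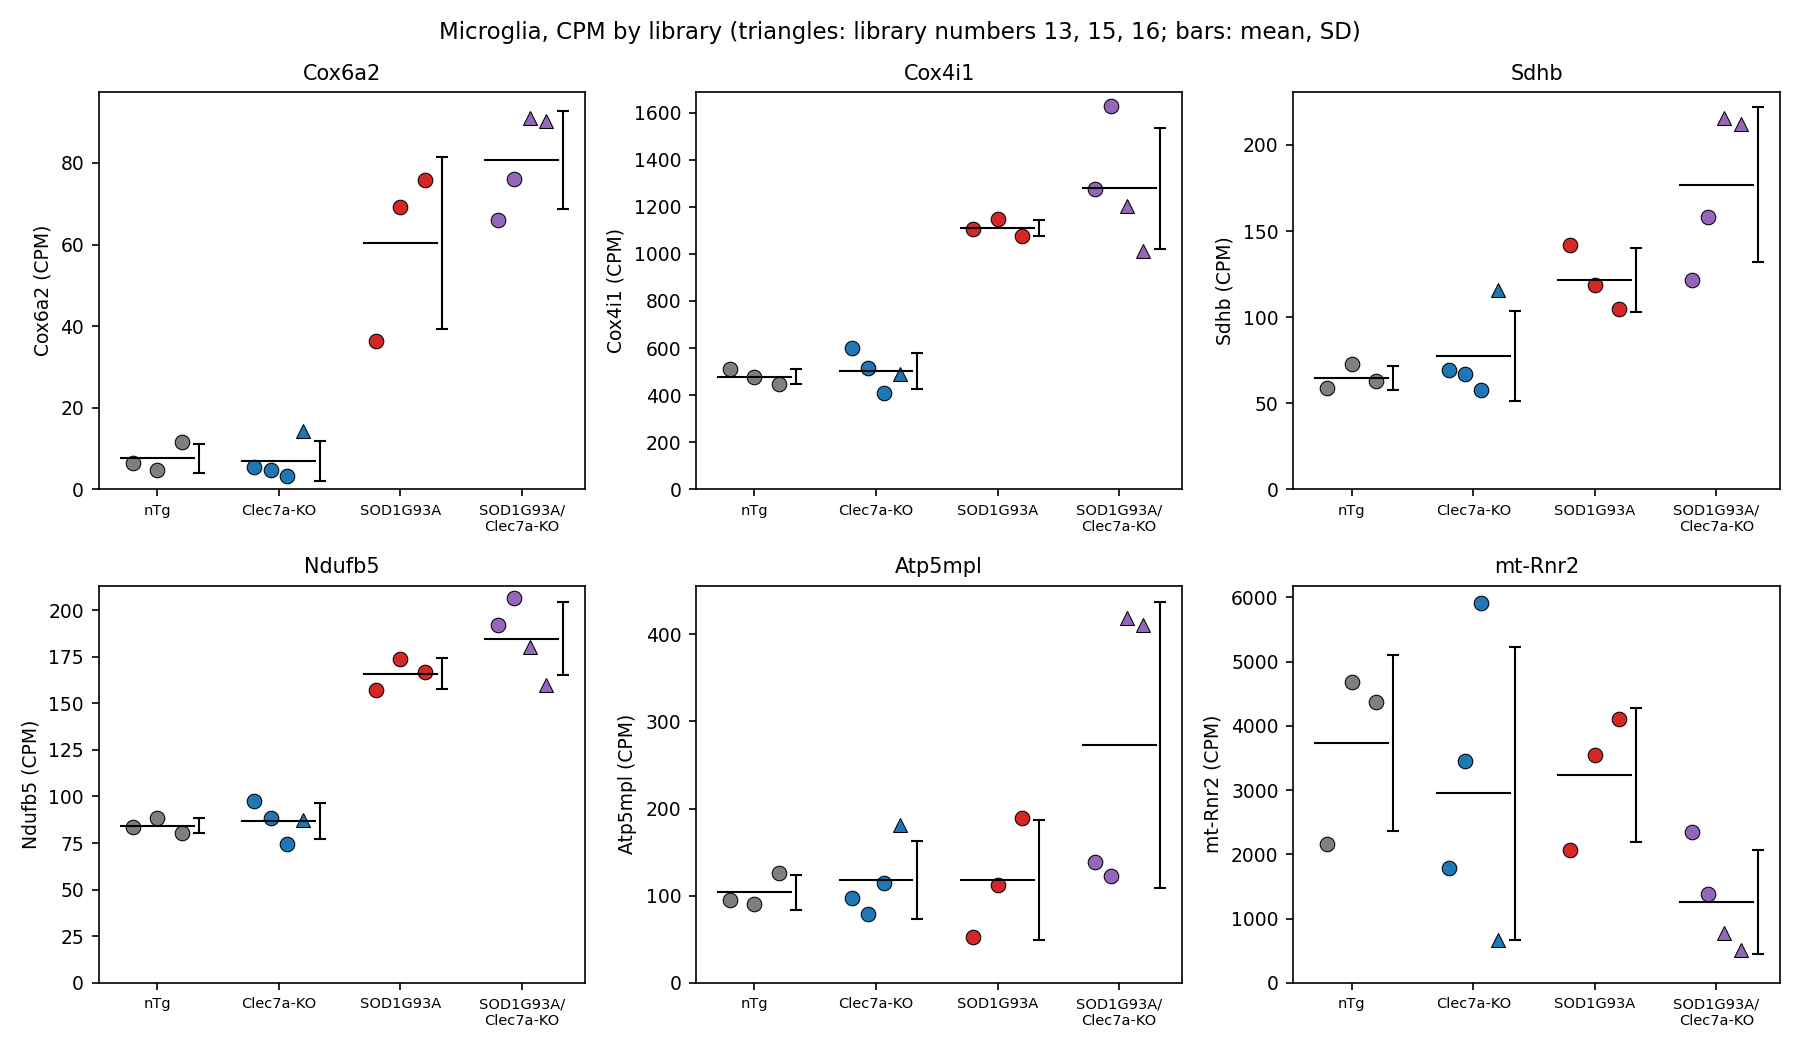
CPM in microglia of Cox6a2, Cox4i1, Sdhb, Ndufb5, Atp5mpl and mt-Rnr2, 1 point per library; lines and bars are mean and SD, and triangles are libraries 13, 15 and 16. In Cox6a2, Cox4i1, Sdhb and Ndufb5 each transgenic group lies wholly above its control group. Atp5mpl follows the triangles, which are also the highest Sdhb points of their groups, and mt-Rnr2 is lowest in the triangles.

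The mt- genes were tested in the same fit. Of 22 tested in microglia, 0 passed in SOD1G93A (1 at an unadjusted p under 0.05; DESeq2 called 1 higher, and edgeR with a term for library number 3 higher) and 1 in the double group, where mt-Rnr1 fell by 1.74 on the log2 scale (SE 0.66, edgeR adjusted p = 0.0431). That call was lost without SOD1G93A/Clec7a-KO_3, SOD1G93A/Clec7a-KO_4, nTg_2, nTg_3, Clec7a-KO_2 or Clec7a-KO_3 and in libraries 1 to 12, each leaving 0 mt- genes called, and 5 were called without Clec7a-KO_4. Medians over the 22 were -0.37 and -0.45 on the log2 scale, and in libraries 1 to 12, over 26 genes, -0.45 and -1.02. mt-Rnr2, the large ribosomal RNA, measured 2157, 4682 and 4365 CPM in nTg and 2069, 3539.9 and 4099.8 in SOD1G93A. Values in the other groups were 1779.6, 3456, 5912 and 665 in Clec7a-KO and 2341, 1380.4, 777 and 517 in the double group, the lowest 3 again coming from libraries 13, 15 and 16. Among the protein-coding mt- genes, mt-Cytb of complex III read 0.66 (edgeR adjusted p = 0.206) and 0.81 (edgeR adjusted p = 0.06), and mt-Nd1 of complex I 0.61 (edgeR adjusted p = 0.0554) and 0.35 (edgeR adjusted p = 0.165). In libraries 1 to 12, mt-Cytb (0.67, edgeR adjusted p = 0.0183) and mt-Nd1 (0.62, edgeR adjusted p = 0.0466) passed as higher in SOD1G93A. The mt- share was also used to remove cells: the filter took 5.55% to 9.09% of barcodes in nTg, 2.01% to 10.6% in Clec7a-KO, 2.09% to 5.43% in SOD1G93A and 0.323% to 1.98% in the double group. Nuclear copies of parts of the mitochondrial genome also make the levels of mt-Co2, mt-Co3 and mt-Atp6 uncertain.

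No member passed the test for loss of Clec7a, without or with the transgene. In Clec7a-KO against nTg, 0 of 83 passed with edgeR, 0 reached an unadjusted p under 0.05, DESeq2 called 0, and the median difference was 0.10 on the log2 scale. Of all genes, 0.025% were called and 2.5% reached an unadjusted p under 0.05. With the transgene present, SOD1G93A/Clec7a-KO against SOD1G93A gave 0 called members with edgeR (0.0187% of all genes), the lowest adjusted p being 0.369 for Atp5g1 (log2 fold change 0.78, SE 0.17). DESeq2 called 2 as higher. Unadjusted p-values were under 0.05 for 39 members (10.8% of all genes), 75 of 83 values lay above 0 and the median was 0.46. The double libraries lay wholly above SOD1G93A for 10 members (3.99% of all genes). In libraries 1 to 12 the median was 0.22 and 0 passed (0.0241% of all genes). The interaction, which asks whether the transgene acts differently without Clec7a, had a median of 0.37 and called 0 members (2 at an unadjusted p under 0.05, against 1.79% of all genes; DESeq2 called 0; edgeR called 0% of all genes). Both Clec7a contrasts share their libraries with the 2 transgene contrasts above.

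Transcript length and size of change were set side by side, in bins chosen after the data were seen. Among genes of at least 20 CPM in microglia, members with a longest coding transcript of up to 800 nt had a median change of 0.54 on the log2 scale in SOD1G93A against nTg, and other genes of that length 0.50. For members over 1500 nt the median was 0.64 and for other genes 0.13. In the second contrast the medians ran from 1.07 in the shortest to 0.77 in the longest members, and from 0.93 to 0.10 in other genes. Between the double group and SOD1G93A they ran from 0.56 to 0.25 in members and from 0.38 to 0.01 in other genes. Endothelial cells had 0.50 to 0.10 and 0.30 to -0.02 in that comparison. The part of length in the results was not tested.

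**Figure D5:**
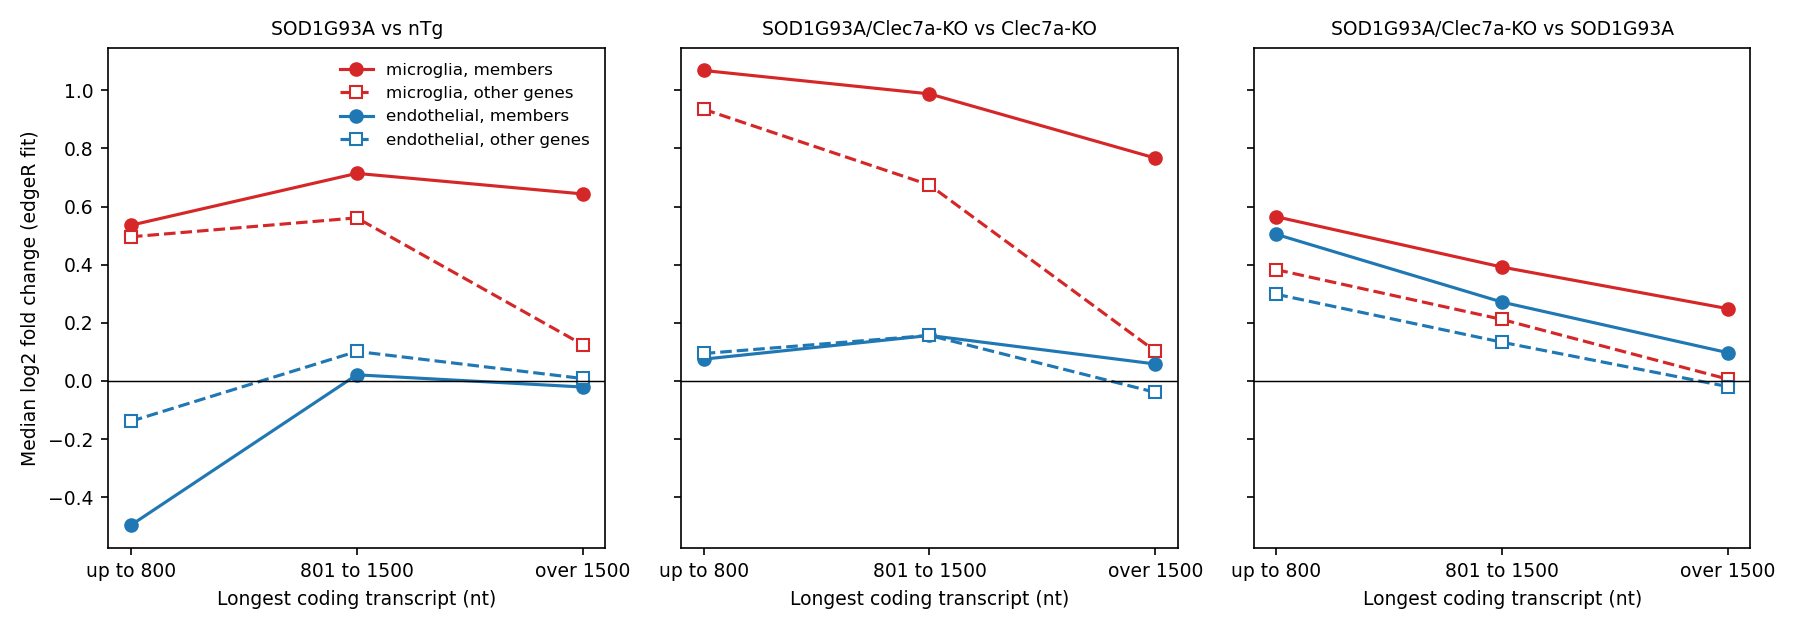
Median log2 fold change (vertical axis) by length of the longest coding transcript (horizontal axis, nt) for members (filled) and other genes (open) of at least 20 CPM, in microglia (red) and endothelial cells (blue). In microglia, members over 1500 nt lie above other genes of that length, at 0.64 against 0.13 and 0.77 against 0.10, while the shortest members lie closer to other genes, at 0.54 against 0.50 in the left panel.

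Other genes of the mitochondrion, from lists chosen with earlier results of these data known, are given beside the 18.7% and 24.5% of all genes that rose in the 2 transgene contrasts in microglia. Mitochondrial ribosomal protein genes rose in 46 of 78 and 58 of 78 cases (medians 0.52 and 0.73), citric acid cycle enzymes outside complex II in 6 and 8 of 13 (0.56 and 0.61), and assembly factors of the complexes in 13 and 24 of 51 (0.30 and 0.44). The carriers, channels and remaining subunits rose in 5 and 8 of 10 (0.54 and 0.81). None of these fell with all libraries, and in libraries 1 to 12 1 mitochondrial ribosomal protein gene was lower in each contrast. Genes of mitochondrial biogenesis and mitochondrial DNA expression gave 2 higher and 0 lower, then 3 higher and 2 lower, of 19 (medians -0.03 and -0.21). With 19 genes, these few calls do not set the list apart from the shares over all genes.

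The makeup of microglia also differed between groups. Among the clusters named microglia, the 3 with the homeostatic genes P2ry12 and Tmem119 among their leading genes had the lowest member shares of UMIs, 0.906% to 1.03%. The other 6 named clusters had 1.23% to 1.53%, the cluster led by Mki67 and Top2a, genes of dividing cells, highest. Within the P2ry12 cluster with the highest of these 3 shares, single libraries measured 1.07%, 0.966% and 1.02% in nTg, 0.856%, 0.982% and 1.16% in SOD1G93A, 1.07%, 0.950%, 1.05% and 0.990% in Clec7a-KO, and 1.16%, 1.15%, 1.32% and 1.23% in the double group. There the double group lay above Clec7a-KO in every library, whereas SOD1G93A and nTg overlapped. The low share of P2ry12 clusters depends on which clusters were named. The unnamed cluster with haemoglobin genes beside P2ry12 and Tmem119 (3903 cells) had a share of 1.24%. Of the 3 named P2ry12 clusters, the one led by Tsix and Xist took 50.5% of its cells from 1 library. The summed markers of border-associated macrophages (8 genes) in the microglial counts were 1.23 to 3.10 CPM without the transgene and 20.2 to 54.6 with it, and those of monocytes (6 genes) 5.59 to 10.4 and 97.1 to 216, with 0 genes of either list at 0. Microglial markers summed to 37667 to 45328 and 42902 to 52891. Other lists were lower with the transgene: markers of neurons summed to 13.8 to 23.0 CPM without it and 2.71 to 8.24 with it. Those of B cells summed to 164 to 227 and 79.6 to 148. Markers of astrocytes, oligodendrocytes and mural cells were also mostly lower, whereas those of oligodendrocyte precursors and endothelial cells reached higher values. The part of these cells in the results was not tested.

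Endothelial cells, sequenced in the same libraries, gave another picture. Of 83 tested members, 1 passed in each transgene contrast, with medians of -0.29 in SOD1G93A against nTg and 0.10 in the double group against Clec7a-KO (1.08% and 1.15% of all genes were called). That member was Cox6a2, with 0 UMIs in all 7 libraries without the transgene, 22 over the SOD1G93A libraries and 36 over the double ones. It passed the filter on low counts only through the transgenic libraries, so its call is a description and not support. Against a floor of 3 UMIs over the group, it was at least 12.8-fold and 32.6-fold higher. Microglial markers summed to 139 to 651 CPM in endothelial cells without the transgene and 752 to 2356 with it, and the part of free microglial RNA was not tested. The member share was lower in every SOD1G93A library (1.21%, 1.33% and 1.53%) than in every nTg library (1.73%, 1.60% and 1.59%). The double group and Clec7a-KO overlapped, with means of 1.75% and 1.62%.

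A joint edgeR fit of microglia and endothelial cells, added after the data were seen and blocked by library, tested whether the change in one class differed from that in the other. In SOD1G93A against nTg, 73 of 83 members had a higher log2 change in microglia than in endothelial cells and 0 a lower one (15.1% of all genes higher, 24.8% called either way), and the median difference was 0.80. This difference holds changes in both classes, and fewer members, 39, passed as higher in microglia alone. For the double group against Clec7a-KO 76 were higher and 2 lower (20.2% of all genes higher, 29.5% either way), with a median difference of 0.90. Cox4i1 differed by 0.98 (SE 0.13) and 1.04 (SE 0.11), and Sdhb by 0.71 and 0.84. Cycs, not called in microglia alone, differed by 0.59 (edgeR adjusted p = 0.00331) in the second contrast. The 2 lower were Cox6a2, whose endothelial counts of 0 leave its difference without a base, and the mainly mural Ndufa4l2 (-1.13, edgeR adjusted p = 0.0497). Libraries 1 to 12 gave 74, and 70 with 1 lower. Neither the double group against SOD1G93A nor Clec7a-KO against nTg gave a member called by this fit (0% and 0.00609% of all genes).

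Astrocytes and ependymal cells were tested in the same way. Ependymal cells gave 0 called members of 81 in both transgene contrasts with edgeR (0.835% and 1.35% of all genes were called). At an unadjusted p under 0.05 there were 11 and 7 (7.21% and 14.5% of all genes), and DESeq2 called 0 in both. In astrocytes 3 of 84 rose and 1 fell in SOD1G93A (33.4% of all genes called), and 4 rose and 2 fell in the double group (32.5%). Cox6b2 rose in both, from 27.9 ± 1.22 CPM in nTg to 91.8 ± 34.6 in SOD1G93A (n = 3 each; 1.75, SE 0.32) and by 1.70 in the double group. Atp5l, the gene with 8 near-identical copies, fell in both, by 1.07 and 0.95 on the log2 scale. Ndufs1 fell in the double group, from 111 ± 12.2 CPM in Clec7a-KO to 77.7 ± 11.8 (n = 4 each; -0.48, SE 0.15), and missed the threshold in SOD1G93A (-0.38, edgeR adjusted p = 0.0705). Cox7a2l rose in SOD1G93A alone (0.98, against 0.51 in the double group), and Cox6a1 (0.49) and Ndufa7 (0.62) in the double group alone. The difference between the 2 contrasts, tested as the interaction, passed for none of Cox7a2l (-0.47), Cox6a1 (0.21) and Ndufa7 (0.51; edgeR adjusted p = 0.999934 for each). Cox6a2 is among the called members in both, but it passed the filter on low counts only through transgenic libraries (1 UMI in all of nTg and 10 in all of Clec7a-KO), so that its call is a description. The astrocyte class held 201 to 1072 CPM of microglial markers without the transgene and 1749 to 9678 with it. Of 16 mt- genes in astrocytes, 3 and 7 fell, among them mt-Nd4l in both and mt-Co1, a core of complex IV, by 0.83 in the double group. Counts of mt- genes in astrocytes under other settings are not given. The calls of astrocytes, counted in either direction, changed with settings, from 2 members with Xist as a covariate to 15 with no filter on low counts in SOD1G93A. The balance of rises and falls given above holds for the fit to all libraries only. Leaving out 1 library gave 3 (without SOD1G93A_1) to 8 (without SOD1G93A_3) there, and 3 (without SOD1G93A/Clec7a-KO_1 or Clec7a-KO_3) to 9 (without SOD1G93A_1) in the double group.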

How the data were processed

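Single-cell RNA of 14 libraries was measured as UMI counts per gene and barcode. The authors deposited raw counts; the submitters' processing notes name Cell Ranger, Seurat, DESeq2 and the build mm10, and per the file headers the matrices were written by software version 3.0.2. Whether counting used strand or included introns is not given in the sources used here. Here, barcodes with low depth (7127), a high mt- share (4963) or a doublet call (6784) were removed, and cells were clustered in scanpy 1.11.5 and named after fixed markers. Clusters in which markers of another class led more often, or a second class scored above a limit (16316 cells), stayed unnamed. Since small changes moved cluster borders, another clustering seed, a run with 1 cell left out and a class of all clusters scoring highest as microglia were added after the data were seen. The counts of each class were added up within a library, and tested in edgeR 4.0.16 under R 4.3.3 (quasi-likelihood, TMM scaling, a filter on low counts, a term per group over all 14 libraries, two-sided, Benjamini-Hochberg adjustment over all genes of the class, threshold 0.05). DESeq2 1.42.0 was an alternative. CPM values of members and mt- genes by library were TMM-scaled within a class, and those between classes, of Clec7a, Itgax, Itgad and Cox6a2 outside microglia, and of summed markers or mt- rRNAs were UMIs scaled to the class total. The SE was taken from the F statistic. The analysis was tested on simulated data. Named genes were fixed core subunits, isoform sets, the 3 largest called changes per complex and contrast, the mt- protein and rRNA genes, and the 8 members with the highest ratio of first to second class. Cox6c, Cox7c, Atp5e, Atp5l, Ndufa7, Mrpl47, Itgax and Itgad were chosen after their values were seen. The members and lists were chosen with earlier results of these data known. Same-numbered replicates were not taken as pairs, and the labels give no other pairing.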

Additional observations from a re-analysis of the deposited data

Results flagged for a closer look

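The changes with the transgene differed between microglia and endothelial cells by a test of the difference itself. This held for 73 members in SOD1G93A against nTg (24.8% of all genes were called) and for 78 in SOD1G93A/Clec7a-KO against Clec7a-KO (29.5% of all genes). The log2 change was higher in microglia for all 73, and for all of the 78 but Cox6a2 and Ndufa4l2. Cox6a2 had no endothelial UMIs without the transgene, so its difference has no base. The cause of the differences was not tested. Among 116 groups of 4 libraries searched for a library far from the other 3, where chance marks about 1 in 20, none was marked. The search left out nTg and SOD1G93A, which had 3 libraries each. It also cannot mark libraries that stand apart as a pair, such as SOD1G93A/Clec7a-KO_3 and SOD1G93A/Clec7a-KO_4, so it does not decide whether libraries deviate.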

How the results depend on the processing

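In microglia, the 39 members higher in SOD1G93A became 60 with a term for library number, 24 with Xist as a covariate and 27 with cells thinned to 2000 UMIs, and leaving out 1 library gave 26 to 43. The 67 of the double group against Clec7a-KO ranged from 55 in libraries 1 to 12 to 75 with the library number, and leaving out 1 library gave 56 (without SOD1G93A/Clec7a-KO_3) to 70. Libraries 1 to 12, another clustering seed, 1 cell left out and all clusters scoring highest as microglia were settings added after the data were seen. No setting turned a called direction among the named genes: 1832 values kept their direction and call, 71 lost the call, 8 gained it and 3 moved. The double group against SOD1G93A gave 2 members with DESeq2 and 0 otherwise. For the mt- genes, the 0 of SOD1G93A against nTg became 1 with DESeq2, 3 with the library number and 2 in libraries 1 to 12, and 0 to 1 without 1 library (1 without Clec7a-KO_3). The 1 of the double group became 3 with DESeq2, 5 with no filter on low counts, 4 with the library number, and 0 with Xist and in libraries 1 to 12. Without 1 library it was 0 to 5, being 5 without Clec7a-KO_4, 4 without SOD1G93A/Clec7a-KO_1, 2 without SOD1G93A_1, SOD1G93A/Clec7a-KO_2 or Clec7a-KO_1, and 0 without SOD1G93A/Clec7a-KO_3, SOD1G93A/Clec7a-KO_4, nTg_2, nTg_3, Clec7a-KO_2 or Clec7a-KO_3. In endothelial cells, the 1 of SOD1G93A became 16 with no filter, 0 with Xist and 0 when thinned, and 1 to 2 without 1 library (2 without SOD1G93A_3); the 1 of the double group became 0 when thinned. In ependymal cells, the 0 of SOD1G93A became 11 with no filter, and the 0 of the double group 1 with no filter, 2 in libraries 1 to 12 and 0 to 1 without 1 library (1 without any of the SOD1G93A or nTg libraries). In astrocytes, the 4 of SOD1G93A became 7 with DESeq2, 15 with no filter, 2 with Xist, 7 at a clustering resolution of 0.5 and 10 in libraries 1 to 12, and 3 (without SOD1G93A_1) to 8 (without SOD1G93A_3) without 1 library. The 6 of the double group became 3 when thinned, 3 with another seed and 11 in libraries 1 to 12, and 3 (without SOD1G93A/Clec7a-KO_1 or Clec7a-KO_3) to 9 (without SOD1G93A_1) without 1 library. The share of all genes called under each setting is not given in this section, nor the direction of calls outside microglia. The causes were not tested.

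Not every pair of replicates with the same number deviated together (correlations from -0.1755 to 0.407), so the numbers were not taken as pairs, although 5 of 6 pairs of replicate 1 (0.148 to 0.362) and the pair of replicate 4 (0.407) did. Pairs of replicate 3 ran from -0.157 to 0.176. The highest correlation between groups, 0.513, joined SOD1G93A/Clec7a-KO_3 and Clec7a-KO_4, which differ in replicate number. With the replicate number as a block, 39 and 71 members passed in microglia in the transgene contrasts and 0 in the other 2. The block gave 2 and 3 mt- genes, 3 and 1 members in endothelial cells, 0 and 0 in ependymal cells, and 8 and 6 in astrocytes. The shares of all genes called with this block are not given. In 7 of 14 libraries the highest correlation was with the library's own number. Depth limits the smaller classes: mural cells, neurons and T or NK cells were described and not tested.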

Other observations

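In astrocytes the mt- share of UMIs was lower in every SOD1G93A library than in every nTg library (means 7.53% and 9.55%), and in every SOD1G93A/Clec7a-KO library than in every Clec7a-KO library (5.93% and 9.32%). In ependymal cells it was higher in every SOD1G93A library than in every nTg library (6.13% and 5.00%), and lower in every SOD1G93A/Clec7a-KO library than in every Clec7a-KO library (4.08% and 4.96%). In mural cells the nuclear member share was lower in every SOD1G93A library than in every nTg library (2.23% and 2.66%), whereas SOD1G93A/Clec7a-KO and Clec7a-KO overlapped (2.53% and 2.61%). These sums were given no test.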
